A study of Sus scrofa with 4 samples.

Results

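Cartilage oligomeric matrix protein (COMP), the thrombospondins THBS1, THBS2 and THBS4, and the cartilage intermediate layer proteins CILP and CILP2 were followed in single cells from the knee meniscus of the pig (Sus scrofa), a crescent of fibrocartilage between femur and tibia. The members are these 6 gene symbols, taken by name from the 21280 features of the count tables, and each matched 1 feature. The 4 libraries were 1 from the white zone and 1 from the red zone of the medial meniscus, and 1 of each from the lateral meniscus. In textbook anatomy the white zone is the inner part without vessels and the red zone the vascularised outer part. The synovium was cut away, cells were freed with pronase followed by collagenase, and 3' libraries were made with a droplet kit (10x Genomics v3.1). Genotype, breed, age and the number of animals are not given in the sources used here. The p-values therefore speak of these 4 libraries alone, with the lateral and medial libraries as the replicates of a zone. The tests also drew on the spread of other genes, so a p-value does not rest on the 4 values of its gene alone.

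Thrombospondins are secreted calcium-binding glycoproteins that link matrix molecules to each other and to receptors on the cell. THBS1 and THBS2 form trimers, limit the growth of vessels and bind CD36 and CD47, and THBS1 can also activate latent TGF-beta. COMP and THBS4 belong to the pentameric branch. COMP binds collagens and helps to assemble their fibrils in cartilage, meniscus and tendon, and THBS4 is a matrix protein of tendon, muscle and heart. CILP, a large glycoprotein of the middle layer of articular cartilage, binds TGF-beta and antagonises its signalling, and CILP2 is its paralogue.

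In the pig genome (build Sscrofa11.1, RefSeq gene table) the members lie on chromosomes 1 and 2, and all are protein-coding. COMP (ENSSSCG00000013916) spans bases 59061409 to 59068951 of chromosome 2. CILP2 (ENSSSCG00000013934) spans 58383568 to 58391973 of the same chromosome, so 0.669 Mb with 23 protein-coding genes separates it from COMP. THBS4 (ENSSSCG00000014117) lies farther along chromosome 2, at 88729531 to 88780759. On chromosome 1 lie THBS2 (ENSSSCG00000004012, 854473 to 882467), THBS1 (ENSSSCG00000004789, 131728781 to 131746098) and CILP (ENSSSCG00000004928, 163236864 to 163271222). The values are molecule counts (unique molecular identifiers, UMIs) over the whole gene, so transcripts of a gene are not told apart.

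After filtering, the libraries held 5554 to 7805 cells and 9201565 to 14895192 UMIs, with a median of 1452.5 to 1617 UMIs per cell. Pairs of libraries shared 10 to 20 cell barcodes. Levels are given as CPM, the UMIs of a gene scaled to the total UMIs of the cells summed. They compare a gene between samples, and where UMIs of a member are divided by those of another, the ratio compares groups of cells and not the genes. In such sums a change in the make-up of the cells and a change within the cells cannot be told apart, so the sums over all cells come first and the sums within groups of cells after them.

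Over all cells, 4 of the 6 members were higher in the white zone: COMP, THBS1, CILP and CILP2, where 41.4% of the 12458 genes tested passed. COMP had 16421 and 9959 CPM in the medial and lateral white libraries, against 1707 and 3412 CPM in the medial and lateral red libraries. Both white libraries lay well above both red ones, and the log2 fold change white over red was 2.90 ± 0.54 (SE, 2 libraries per zone, adjusted p = 0.00183). THBS1 had 1977 and 1599.7 CPM in the medial and lateral white libraries and 551 and 824 CPM in the red ones, again without overlap (log2 fold change 1.89 ± 0.31, adjusted p = 0.00081). CILP2 had 2859.8 and 1495 CPM in the white zone and 261 and 514 CPM in the red zone (2.99 ± 0.44, adjusted p = 0.000396).

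CILP showed the widest gap of the members. Its level was 1715 and 430.4 CPM in the medial and lateral white libraries, and 21.4 and 24.1 CPM in the red ones (log2 fold change 5.74 ± 0.49, adjusted p = 1.16e-05). The white libraries differed 3.98-fold from each other, medial over lateral, and the red libraries 0.885-fold. A UMI of CILP was seen in 64.5% and 31.7% of the medial and lateral white cells, against 2.38% and 2.59% of the red cells.

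THBS2 and THBS4 did not pass the test over all cells. THBS4 had 1596 and 884 CPM in the medial and lateral white libraries and 1083 and 1209.9 CPM in the red ones, so the zones overlapped (log2 fold change 0.54 ± 0.31, adjusted p = 0.181). Without the lateral white library the THBS4 difference passed (log2 fold change 0.91, adjusted p = 0.0123). THBS2 had 292 and 209 CPM in the white zone and 345 and 298 CPM in the red zone (0.12 ± 0.20, adjusted p = 0.678). Its white CPM were the lower ones while its fitted fold change was positive, because TMM scaling moved the median of all genes, which was -0.50 with library totals alone. On library totals THBS2 had a log2 fold change of -0.38.

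The background is high, with 18.6% of the tested genes called above and 22.8% below in white. On the log2 fold change CILP stood at percentile 99.9 of all genes tested, CILP2 at 98.9, COMP at 98.8 and THBS1 at 97.0, and THBS4 and THBS2 at 77.1 and 56.3. DESeq2 on the same sums gave COMP a log2 fold change of 2.90 with an adjusted p of 0.0949, and the other three members called higher kept their calls in all 9 alternatives run.

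**Figure D1:**
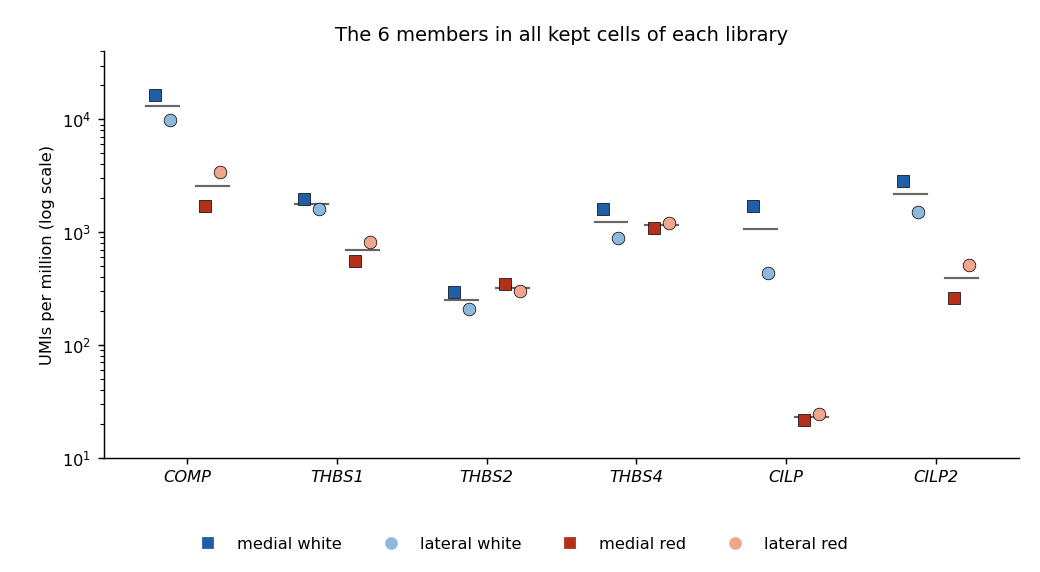
CPM of each member over all kept cells (log axis), 1 symbol per library, with the white zone (blue) left of the red zone (red), squares for the medial and circles for the lateral meniscus and a bar at the mean of the 2 libraries. COMP, THBS1, CILP and CILP2 separate the zones, THBS4 overlaps, and the CILP means are 1073 CPM in white and 22.7 CPM in red.

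Between the menisci no member passed in edgeR, where 0.185% of genes tested did, and DESeq2 called none. No member had an unadjusted p below 0.05 in edgeR, against 923 of the 12458 genes tested. CILP came nearest, with a log2 fold change medial over lateral of 0.89 ± 0.43 (adjusted p = 0.703, unadjusted p = 0.0627). COMP was 1.65-fold higher in the medial than in the lateral white library and 0.50-fold in the red pair. CILP2 followed the same order, with 1.91-fold in the white pair and 0.509-fold in the red pair. Each of these ratios compares 1 library with 1 other, and the difference between them was not tested.

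Cells were then grouped by counts of marker genes from which the members were left out. A cell went to the list of which most markers were detected, at least 2 and more than of any other list. Chondrocyte-like cells (markers such as COL2A1, COL9A1 and SNORC) were 17.2% of medial white (exact 95% binomial interval 16.4 to 18.0) and 28.1% of lateral white cells (27.1 to 29.2), against 17 and 40 cells in the medial and lateral red libraries. Fibrochondrocyte-like cells (FMOD, PRELP, CHAD, OMD, OGN, ASPN) were 62.9% (61.8 to 64.0) and 42.4% (41.2 to 43.5) of the white cells and 14.1% (13.2 to 14.9) and 18.9% (17.9 to 19.9) of the red cells. Fibroblast-like cells (LUM, CXCL14, PDGFRA and others) were 0.884% and 1.79% in the white zone and 32.1% and 21.8% in the red zone. Mural-like cells were 1.63% and 1.72% of the medial and lateral white cells and 13.0% and 15.1% of the red ones. Endothelial-like cells were 3.06% and 2.02% in white and 13.6% and 15.0% in red, and myeloid-like cells 0.705% and 0.989% in white and 9.98% and 10.8% in red. Between 13.6% and 22.9% of cells fitted no list alone.

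The marker lists were summed in each group. COL2A1 and its companions, summed as the chondrocyte list, reached 31686 and 17233 CPM in medial and lateral white chondrocyte-like cells and 26153 and 29464 CPM in the red ones. The same list was at 3351 and 3253 CPM in white fibrochondrocyte-like cells and at 462 and 667 CPM in the red ones, so its level moved with the zone inside that group. The fibroblast list includes COL3A1, a collagen gene of many connective tissue cells. Its sum did not set fibroblast-like cells apart in the white libraries, while in the red ones it was higher in them than in fibrochondrocyte-like cells. It stood at 18683 and 13396 CPM in medial and lateral white fibroblast-like cells and at 26914 and 22243 CPM in the red ones. In fibrochondrocyte-like cells it stood at 80430 and 25624 CPM in the white zone and 15562 and 14719 CPM in the red zone, and in white chondrocyte-like cells at 43509 and 27540 CPM. The fibroblast-like group is thus defined by how many of its markers were detected in a cell and not by their summed level.

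Fibrochondrocyte-like cells carried more of every member than fibroblast-like cells of the same libraries. All 6 passed in that comparison, in which 12.4% of 10012 genes tested passed and 5.95% were higher. CILP2 had the largest difference, with a log2 fold change of 3.71 ± 0.54 (adjusted p = 2.17e-05), followed by CILP at 3.25 ± 0.50, THBS1 at 2.56 ± 0.44, COMP at 1.79 ± 0.52, THBS4 at 1.52 ± 0.41 and THBS2 at 1.05 ± 0.34 (adjusted p = 0.0405). THBS1, CILP and CILP2 kept this call in all 8 alternatives, COMP and THBS2 in 2 of 8 and THBS4 in 4 of 8.

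Chondrocyte-like cells were higher than fibroblast-like cells in COMP (2.37 ± 0.56), THBS1 (2.83 ± 0.47), CILP (4.55 ± 0.57) and CILP2 (3.55 ± 0.56), where 19.9% of genes tested passed and 9.83% were higher. THBS2 (0.32 ± 0.38) and THBS4 (-0.54 ± 0.44) were not called there. Only the lateral red library entered this comparison from the red zone, with 40 chondrocyte-like cells, as the medial red library held 17. With so few red cells, zones were not tested in this group. Its COMP averaged 13014 CPM in white and 19086 CPM in red, THBS1 1744 and 3172, THBS4 473 and 677 and CILP2 1766 and 3270.5. All of these were lower in white in both menisci, while CILP (1360 and 535 CPM) and THBS2 (192 and 279 CPM) overlapped between zones.

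The order of the groups by mean CPM was not the same for all members. COMP averaged 15508 ± 5050 CPM in chondrocyte-like cells (SD, n = 3 libraries), 10201 ± 5866 in fibrochondrocyte-like and 3196 ± 1126 in fibroblast-like cells (n = 4 libraries each). The first pair overlapped across libraries and the second pair did not. THBS4 had its highest mean in fibrochondrocyte-like cells, 2551 ± 981 CPM, then 1178 ± 314 in fibroblast-like and 587 ± 199 in chondrocyte-like cells. There the first pair overlapped, and fibroblast-like and chondrocyte-like cells did not. THBS2 ran 511 ± 247, 308 ± 116 and 269 ± 134 CPM in the same order, with overlap at each step. For CILP2 the fibrochondrocyte-like (2022 ± 934) and chondrocyte-like (1997 ± 494) groups overlapped, and both lay above fibroblast-like cells (285 ± 250). The wide SDs hold the zone and meniscus differences as well as noise.

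**Figure D2:**
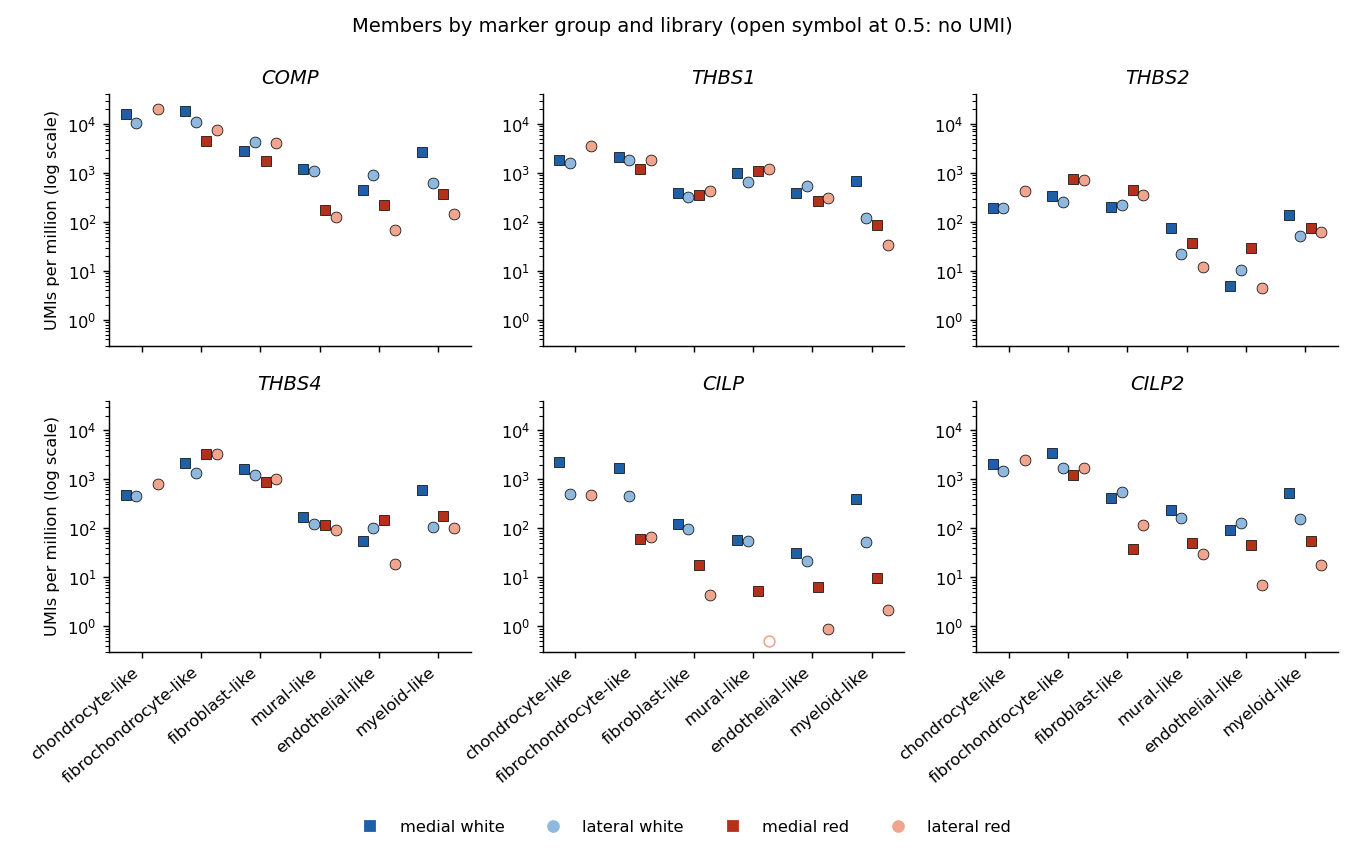
CPM of each member (log axis) in 6 marker groups, 1 symbol per library with at least 20 cells of the group, white libraries left of red ones within a group. THBS4 is lower in chondrocyte-like than in fibrochondrocyte-like cells of every library shown, and THBS1 in mural-like cells lies between 659 and 1179 CPM.

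Set against fibrochondrocyte-like cells, chondrocyte-like cells had less THBS4 and no other called difference among the members. THBS4 had 491 CPM in medial white, 455 CPM in lateral white and 816 CPM in lateral red chondrocyte-like cells. In fibrochondrocyte-like cells it had 2147 and 1351 CPM in the medial and lateral white libraries and 3339.5 and 3366 CPM in the red ones. The log2 fold change was -2.07 ± 0.47 (adjusted p = 0.00969), in a comparison added after the data were seen in which 3.65% of genes tested passed and 2.5% were lower. Without the medial white library the adjusted p was 0.0562. CILP stood at 1.30 ± 0.49 (adjusted p = 0.156).

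The members were also followed along the COL2A1 count inside fibrochondrocyte-like cells. For this each cell was thinned to 1000 UMIs and cells were binned by their COL2A1 UMIs. In the medial white library THBS4 averaged 2.52, 1.17, 0.968 and 0.733 UMIs per thinned cell at 0, 1 to 2, 3 to 9 and 10 or more COL2A1 UMIs, and in the lateral white library 1.65, 0.951, 0.617 and 0.574. Over the same bins CILP averaged 1.37, 1.91, 2.81 and 3.75 in the medial and 0.381, 0.513, 0.641 and 0.902 in the lateral white library. THBS4 was thus lower, and CILP higher, in each bin than in the one before it, in both libraries. COMP averaged 17.3 in the lowest and 25.7 in the highest bin of the medial white library, and 10.4 and 17.4 in those of the lateral white one. THBS1 averaged 2.14 and 2.73 in the medial and 1.69 and 2.78 in the lateral white library. CILP2 averaged 3.51 and 2.90 in the medial and 1.80 and 2.14 in the lateral white library, so its order differed between the menisci. The bins held 122 to 3247 cells, and red libraries had under 20 cells in each bin above 0. COL2A1 is a marker used to form the groups, the bins are cells of 1 library each, and no test was made of these courses.

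**Figure D3:**
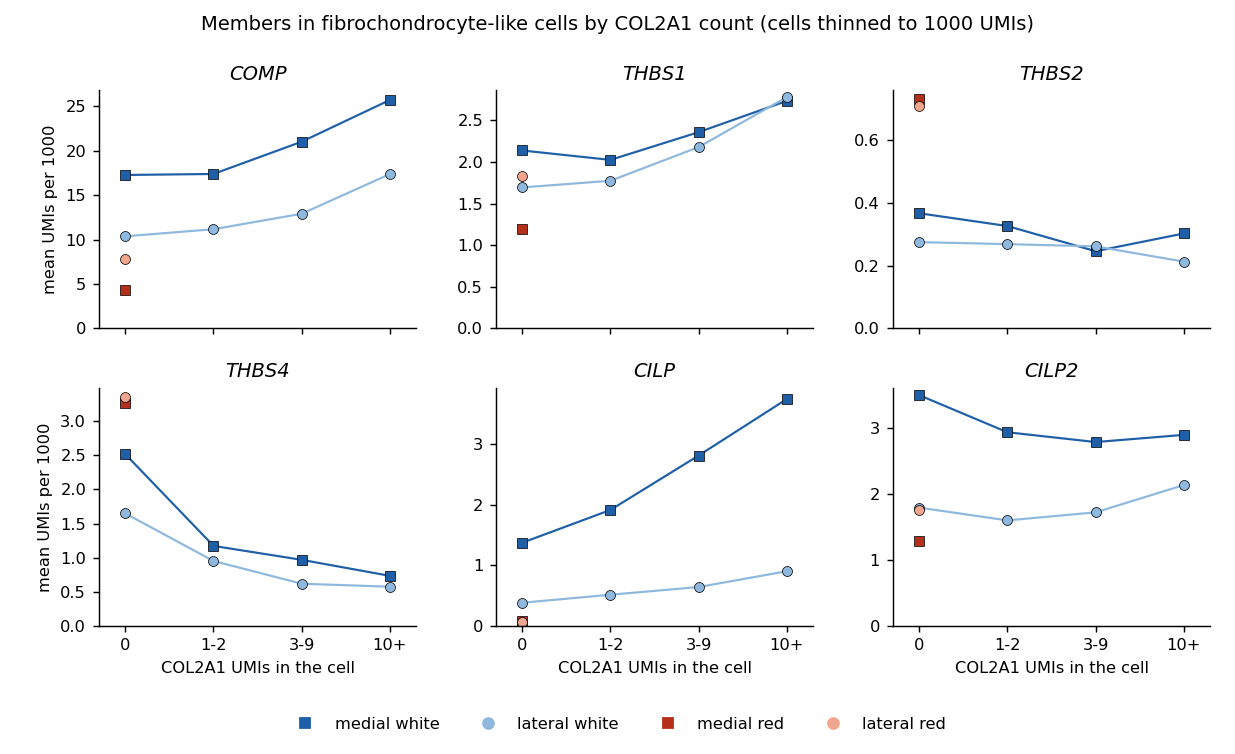
Mean UMIs of each member per cell thinned to 1000 UMIs (y axis from 0) in fibrochondrocyte-like cells, by COL2A1 UMIs in the cell, 1 line per library, bins of at least 20 cells. THBS4 is lower, and CILP, COMP and THBS1 higher, in the highest than in the lowest COL2A1 bin in both white libraries, and red libraries appear at 0 COL2A1 UMIs alone.

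Within fibrochondrocyte-like cells the zones differed in CILP and THBS2. CILP had 1694 and 458 CPM in the medial and lateral white libraries, against 61.7 and 65.9 CPM in the red libraries (log2 fold change 3.94 ± 0.39, adjusted p = 2.55e-07). The CILP call was kept in all 9 alternatives, with log2 fold changes from 3.08 to 4.82. THBS2 was lower in the white zone, with 345 and 255 CPM there and 742 and 704 CPM in the red zone (-1.12 ± 0.26, adjusted p = 0.00322). The THBS2 call was lost without the medial red library (adjusted p = 0.188) and without the lateral red library (adjusted p = 0.147), with log2 fold changes of -1.13 and -1.06. In this group 19.1% of 9664 genes tested passed, with 8.23% above and 10.9% below in white.

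The remaining members were not called in this group. COMP had 18048 and 10916 CPM in the medial and lateral white libraries and 4423 and 7416 CPM in the red ones, with no overlap (1.46 ± 0.55, adjusted p = 0.0688). It passed in 4 of 9 alternatives. THBS4 had 2147 and 1351 CPM in the white zone and 3339.5 and 3366 CPM in the red zone, also without overlap (-0.81 ± 0.36, adjusted p = 0.123). CILP2 had 3379 and 1733 CPM in the white zone and 1240.1 and 1735 CPM in the red zone, so the lateral white and lateral red values were nearly equal (0.88 ± 0.38, adjusted p = 0.114). THBS1 had 2122 and 1835 CPM in the white zone and 1216 and 1793 CPM in the red zone (0.58 ± 0.33, adjusted p = 0.249).

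Shares of cells followed the levels. With all UMIs, CILP was seen in 69.5% of medial white (exact 95% binomial interval 68.2 to 70.8) and 34.0% of lateral white fibrochondrocyte-like cells (32.4 to 35.7), against 6.17% (4.73 to 7.89) and 8.96% (7.30 to 10.9) of medial and lateral red ones. Thinned to 1000 UMIs per cell, these shares were 60.4% and 26.6% in the white zone and 5.27% and 6.18% in the red zone. Endothelial-like cells were set beside them. With all UMIs their shares were 2.93% and 1.34% in the medial and lateral white and 0.542% and 0.12% in the red libraries. Their median depth was 1114 and 959 UMIs in the white and 1395 and 1115 in the red libraries, against 1676 and 1440 in white and 1635.5 and 1798 in red fibrochondrocyte-like cells. The intervals of the red fibrochondrocyte-like shares lay above those of the red endothelial-like shares, at most 1.26%. These shares were taken at unequal depth, and the cause of the gap was not tested. THBS4 was detected in 62.2% and 54.0% of thinned medial and lateral white cells and in 83.9% and 88.5% of the red ones. THBS2 was detected in 27.5% and 22.2% of the white and in 47.9% and 47.2% of the red ones. Thinning left out 451 and 546 shallower white and 140 and 94 shallower red cells of the group.

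Cells of this group with no COL2A1 UMI after thinning were also described alone. Their CILP was 1.37 and 0.381 UMIs per 1000 in the medial and lateral white libraries and 0.0786 and 0.0681 in the red ones. Their THBS2 was 0.367 and 0.275 in white and 0.733 and 0.710 in red libraries. Their COMP was 17.3 and 10.4 in white and 4.33 and 7.85 in red libraries. The white and red values of these 3 members did not overlap, and no test was made of them. The part of the chondrocyte list in the zone differences of this group was not tested.

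**Figure D4:**
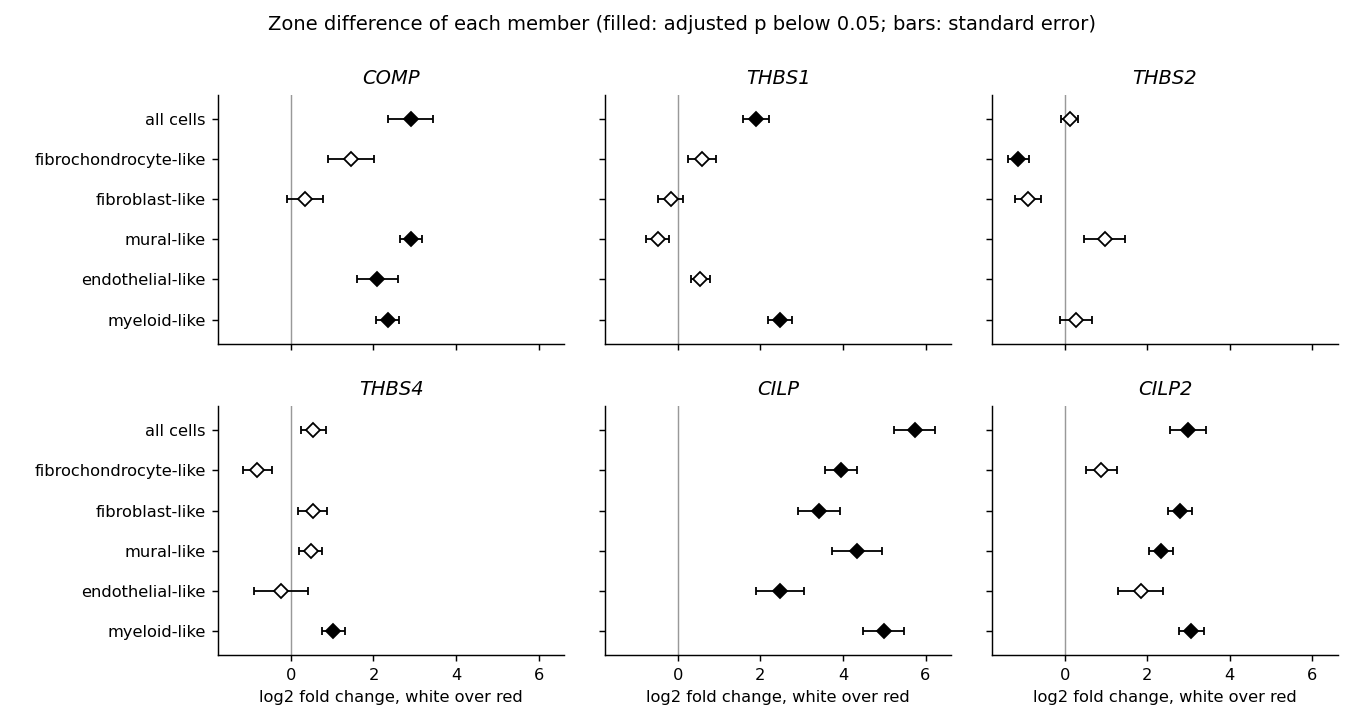
Log2 fold change white over red with its standard error (x axis) for each member over all cells and within 5 marker groups (rows), with filled diamonds where the adjusted p was below 0.05. CILP is right of 0 and called in every row, from 2.48 in endothelial-like to 5.74 over all cells, and THBS2 is called in fibrochondrocyte-like cells alone, left of 0.

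Fibroblast-like cells gave another set of differences. CILP2 had 421 and 566 CPM in the medial and lateral white libraries, against 38.0 and 115 CPM in the red libraries (log2 fold change 2.79 ± 0.30, adjusted p = 5.51e-18, and 0.0846 without the lateral white library). CILP had 120.4 and 99.0 CPM in the white zone, from 12 and 21 UMIs, and 17.6 and 4.36 CPM in the red zone (3.42 ± 0.51, adjusted p = 4.39e-09). Without the medial white library the CILP adjusted p was 0.0588, and without the lateral white library 0.112. Here 4.24% of 7928 genes tested passed and 1.75% were higher in white. COMP (0.34 ± 0.43), THBS1 (-0.17 ± 0.30), THBS4 (0.52 ± 0.35) and THBS2 (-0.90 ± 0.32, adjusted p = 0.0877) were not called. The white groups were small, with 69 medial and 132 lateral cells, and their chondrocyte list stood at 502 and 877 CPM, against 40.8 and 124 CPM in the red groups. Its part in the CILP and CILP2 differences was not tested.

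The zone difference itself was compared between fibrochondrocyte-like and fibroblast-like cells of the same libraries, in a comparison added after the data were seen in which 2.53% of genes tested passed. CILP2 differed less between zones in fibrochondrocyte-like cells, by -2.05 ± 0.31 on the log2 scale (adjusted p = 9.19e-08). THBS4 differed by -1.35 ± 0.27 (adjusted p = 0.00014), being lower in white fibrochondrocyte-like cells of both menisci and higher in white fibroblast-like cells of both. COMP differed by 1.09 ± 0.29 (adjusted p = 0.0125), a call that DESeq2 did not make (adjusted p = 0.597). THBS1, THBS2 and CILP were not called. Against mural-like, endothelial-like and myeloid-like cells no member passed, where 5.53%, 6.17% and 0.928% of genes tested did. Their unadjusted p was below 0.05 for 4 members against myeloid-like cells (THBS1, THBS2, THBS4 and CILP2), for 5 against mural-like cells (all but CILP) and for CILP against endothelial-like cells. Over all genes it was below 0.05 for 1154 of 9270 against myeloid-like, 1850 of 9317 against mural-like and 2058 of 9515 against endothelial-like cells. DESeq2 called none of these members either. With library totals alone COMP, THBS4 and CILP2 passed against mural-like and THBS4 and CILP2 against myeloid-like cells, and with at least 3 markers THBS2 passed against mural-like cells.

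Mural-like, endothelial-like and myeloid-like cells were described next. In mural-like cells, which wrap vessels, THBS1 had 983 and 659 CPM in the medial and lateral white libraries and 1089 and 1179 CPM in the red ones (-0.49 ± 0.28, adjusted p = 0.339). Mural-like cells held 25.7% and 21.1% of all THBS1 UMIs of the medial and lateral red libraries, against 1.34% and 0.554% of the COMP UMIs. Relative to fibroblast-like cells, mural-like cells had less COMP (-3.19 ± 0.56), THBS2 (-3.74 ± 0.44), THBS4 (-3.50 ± 0.45) and CILP2 (-1.43 ± 0.53), where 24.7% of genes tested passed and 13% were lower. THBS1 stood at 1.14 ± 0.43 (adjusted p = 0.0513) and CILP at -1.67 ± 0.63 (adjusted p = 0.0525), both just outside the threshold. The CILP2 call rests on the setting, as it was kept in 2 of 8 alternatives.

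Endothelial-like cells had less COMP (-3.59 ± 0.57), THBS2 (-4.76 ± 0.45), THBS4 (-4.08 ± 0.47), CILP (-2.15 ± 0.65) and CILP2 (-2.07 ± 0.55) than fibroblast-like cells, where 36.9% of genes tested passed and 19.5% were lower, and their THBS1 was at -0.26 ± 0.43. Myeloid-like cells had less COMP (-2.42 ± 0.55), THBS1 (-1.22 ± 0.48), THBS2 (-2.10 ± 0.41) and THBS4 (-2.48 ± 0.44), where 46.8% of genes tested passed and 24.3% were lower. The THBS1 call was kept in 1 of 8 alternatives, the one without the medial white library (-2.36), and the other three calls in 8 of 8. For each COMP UMI, red mural-like cells held 6.17 (medial) and 9.21 (lateral) THBS1 UMIs and red endothelial-like cells 1.18 and 4.43. White mural-like cells held 0.821 and 0.609, white endothelial-like cells 0.872 and 0.619 and white fibrochondrocyte-like cells 0.118 and 0.168. Red myeloid-like cells held 0.231 and 0.238, close to the 0.275 and 0.242 of red fibrochondrocyte-like cells.

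COMP and CILP were called higher in the white zone in these 3 groups too, and CILP2 in mural-like and myeloid-like cells. In mural-like cells COMP had 1197 and 1081 CPM in the medial and lateral white libraries and 176 and 128 CPM in the red ones (2.91 ± 0.27), CILP2 differed by 2.33 ± 0.30 and CILP by 4.34 ± 0.60, where 7.8% of genes tested passed and 3.46% were higher. CILP rested on 10 UMIs in each white library and on 8 and 0 in the medial and lateral red ones, where a count of 0 allows up to 2.21 CPM. Its call was lost without the medial red (adjusted p = 0.372) and without the lateral red library (adjusted p = 0.489). In endothelial-like cells COMP (2.10 ± 0.50) and CILP (2.48 ± 0.58) passed, where 6.48% of genes did and 2.51% were higher, CILP2 did not (adjusted p = 0.0695), and THBS2 was too low to be tested. Leaving out either white library ended the COMP call (adjusted p = 0.469 without the medial and 0.38 without the lateral one), and leaving out any 1 library ended the CILP call (0.206 to 0.602). In myeloid-like cells COMP (2.34 ± 0.27), THBS1 (2.47 ± 0.28), THBS4 (1.03 ± 0.28), CILP (4.99 ± 0.50) and CILP2 (3.07 ± 0.30) passed, where 6.11% of genes did and 2.85% were higher. All of these myeloid calls were lost without the medial white library, with log2 fold changes of 1.12 for COMP, 0.85 for THBS1, -0.54 for THBS4, 2.96 for CILP and 1.94 for CILP2. The chondrocyte list moved with the zone in all 3 groups, at 104 to 1606 CPM in the white and 4.47 to 40.9 CPM in the red libraries. Its part in these differences was not tested.

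Cells in which no chondrocyte or fibrochondrocyte marker was detected were also summed alone. In such mural-like cells THBS1 had 484 and 555 CPM in the medial and lateral white libraries (26 and 28 UMIs) and 1075.5 and 1057 CPM in the red ones (1037 and 799 UMIs). COMP had 186 and 159 CPM in the white libraries, from 10 and 8 UMIs, and 10.4 and 51.6 CPM in the red ones. Endothelial-like cells without these markers had 271 and 555 CPM of THBS1 in the white zone and 226 and 296 CPM in the red zone. In myeloid-like cells without them THBS1 was at 0 and 12.6 CPM, from 0 and 1 UMI, in the white zone and at 36.4 and 20.03 CPM in the red zone. In each library of the mural-like, endothelial-like and myeloid-like cells without these markers, CILP had 0 to 3 and CILP2 0 to 7 UMIs. Such mural-like cells held 1 and 0 CILP2 UMIs in the medial and lateral white libraries and 2 and 7 in the red ones. The CILP and CILP2 counts are too few to give a direction. COMP had 136 and 98.8 CPM in the medial and lateral white endothelial-like cells without these markers and 21.6 and 43.7 CPM in the red ones. In the myeloid-like cells without them COMP had 110 and 88.2 CPM in the white zone and 29.4 and 42.6 CPM in the red zone. UMIs of both THBS1 and COMP were thus counted in mural-like and endothelial-like cells without these markers in all 4 libraries.

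**Figure D5:**
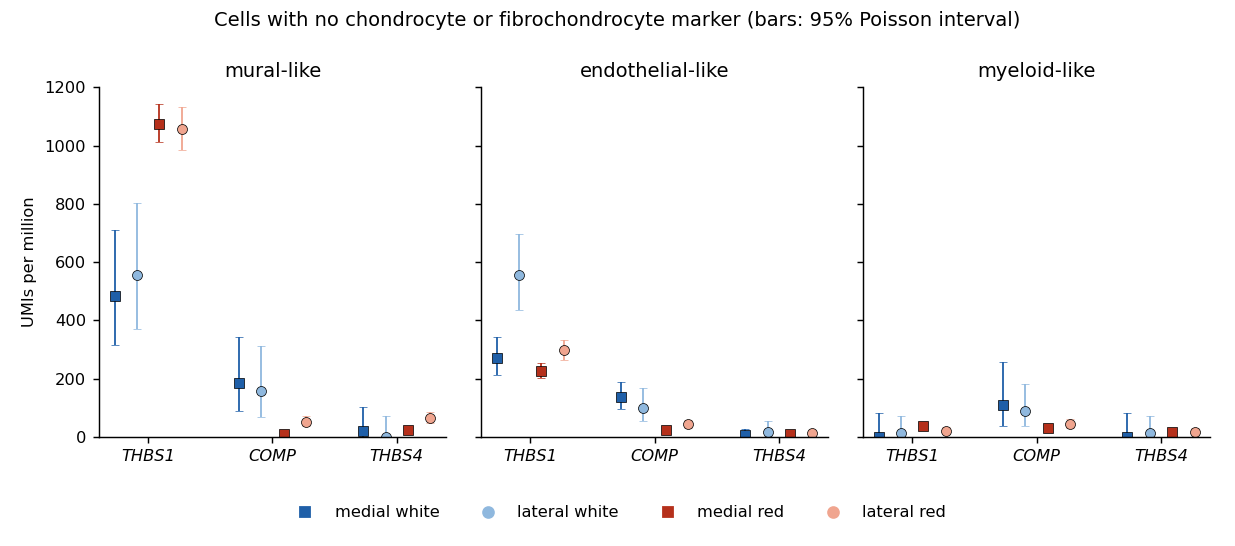
CPM of THBS1, COMP and THBS4 (linear axis from 0, bars show exact 95% Poisson intervals of the counts) in mural-like, endothelial-like and myeloid-like cells in which no chondrocyte or fibrochondrocyte marker was detected, white libraries left of red ones. THBS1 stands at 484 to 1075.5 CPM in mural-like cells, and the highest COMP value is 186 CPM.

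Members were also set against each other cell by cell in the thinned fibrochondrocyte-like cells. CILP was detected in 62.6% of medial and 30.3% of lateral white cells that had CILP2, against 40.5% and 17.0% of those that did not. In the red libraries the shares were 7.99% and 7.39% with CILP2, and 2.12% and 3.76% without. CILP was detected in 60.8% and 27.8% of medial and lateral white cells with THBS4 and in 59.9% and 25.3% of those without. With COMP it was detected in 60.8% and 27.4% of them, against 17.1% and 3.70% of the 41 and 81 cells without. With THBS1 the shares were 64.5% and 30.7%, against 54.9% and 21.3% without. With THBS2 they were 60.3% and 25.0%, against 60.5% and 27.1% without. Cells of 1 library are not replicates, so these shares carry no test.

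Across 24 sums of a library and a marker group, the genes nearest to each member by Pearson correlation of log2(CPM + 1) were sought among 5105 genes. DCN (0.987), FMOD (0.982) and PAQR9 (0.981) lay nearest to COMP. PRELP (0.971), CHAD (0.949) and FMOD (0.946) lay nearest to CILP2. THBS4 was the nearest of all to THBS2 (0.947), ahead of TGFBI (0.941) and PTN (0.940), and MRC2 (0.956), THBS2 and ABI3BP (0.936) lay nearest to THBS4. SCRG1 (0.940), LBP (0.939) and SHISA2 (0.937) lay nearest to CILP, and SAMD4A (0.935), CD109 (0.933) and BPNT2 (0.926) to THBS1. The member nearest to THBS1 was CILP2 (0.789), at rank 222 of the 5105 genes, and the farthest CILP (0.636). FMOD, PRELP and CHAD helped to form the groups, and sums of 1 library share their depth, so these values describe likeness alone.

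Lists of genes tied to the members were counted over all cells, where white had 18.6% of all genes tested above and 22.8% below red, and within fibrochondrocyte-like cells, where it had 8.23% above and 10.9% below. The lists were not tested for enrichment. Of the 13 listed matrix partners of COMP, 10 were tested, 5 rose in the white zone and 1 fell (18.6% and 22.8% of all genes), with a median log2 fold change of 1.63 against -0.01 over all genes. COL9A3 (5.02 ± 0.21), COL9A1 (5.31 ± 0.58) and ACAN (3.49 ± 0.29), parts of the collagen II and aggrecan matrix, and MATN4 (2.98 ± 0.21), a matrilin, had the lowest p-values, and the gene that fell was the fibril-associated collagen COL14A1 (-1.39 ± 0.32). The collagen IX genes are also chondrocyte markers here. Within fibrochondrocyte-like cells 5 rose and 4 fell (8.23% and 10.9% of all genes), and COL14A1 was again lower in the white zone (-2.37 ± 0.37).

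Of 10 proteases known to cleave COMP or thrombospondins, 9 were tested between zones, with 6 that fell and 2 that rose (median log2 fold change -1.35), against 22.8% and 18.6% of all genes. ADAMTS4 had 11.4 and 12.8 CPM in the medial and lateral white libraries and 427 and 408 CPM in the red ones (-4.62 ± 0.23, adjusted p = 6.49e-07). MMP2 (-3.62 ± 0.31), ADAMTS1 (-2.46 ± 0.23) and ADAMTS5 (-1.35 ± 0.20) fell with it, and those that rose were HTRA1 (1.80 ± 0.32) and MMP13 (1.44 ± 0.44). Within fibrochondrocyte-like cells 7 were tested and 3 fell, ADAMTS4 (-3.64 ± 0.28), MMP2 (-3.67 ± 0.30) and ADAMTS1 (-2.35 ± 0.23), and none rose, with HTRA1 at 0.97 ± 0.34 (adjusted p = 0.0523).

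Among 17 listed receptors and binding partners of thrombospondins 15 were tested, 3 rose and 5 fell in the white zone (median -0.26), against 18.6% and 22.8% of all genes. CD36, a scavenger receptor of THBS1, had 0.537 and 1.24 CPM in the medial and lateral white libraries and 60.6 and 38.6 CPM in the red ones (-5.29 ± 0.37). The integrin genes ITGB3 (-3.66 ± 0.33) and ITGA4 (-3.34 ± 0.34) and the channel subunit gene CACNA2D1 (-2.47 ± 0.22) also fell. Those that rose were LRP8 (1.69 ± 0.24) and the integrin genes ITGAV (1.13 ± 0.20) and ITGB5 (1.13 ± 0.27). In fibrochondrocyte-like cells 11 were tested, 1 rose and 2 fell. ITGA6 rose (1.58 ± 0.42), CACNA2D1 was among those that fell (-2.29 ± 0.33), and CD36, ITGB3 and ITGA4 were too low there to be tested.

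All 16 listed genes of TGF-beta and IGF1 signalling were tested over all cells, and 7 rose and 3 fell in the white zone (median 0.48), against 18.6% and 22.8% of all genes. LTBP1 (1.08 ± 0.19), which holds latent TGF-beta in the matrix, its family member LTBP2 (2.40 ± 0.19) and the receptors TGFBR1 (2.25 ± 0.20) and TGFBR3 (1.24 ± 0.19) had the lowest p-values. Within fibrochondrocyte-like cells 3 rose and 6 fell, with LTBP2 (1.92 ± 0.23) and TGFBR1 (1.58 ± 0.23) still higher in the white zone. The one further thrombospondin gene measured, THBS3, was lower in the white zone over all cells, with 46.3 and 22.8 CPM in the medial and lateral white libraries and 93.1 and 87.6 CPM in the red ones (-0.98 ± 0.22, adjusted p = 0.00516), and within fibrochondrocyte-like cells (-1.32 ± 0.21).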

How the data were processed

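Cells of 4 libraries were compared. The deposited tables hold whole-number UMI counts per gene and barcode, made by the authors with Cell Ranger 6.1.2 against Sscrofa11.1, per the submitters' processing notes, with barcodes already filtered. Of 21280 features, 14811 had a symbol in the files and 688 took one from a reference table. The members, marker lists, gene lists and rules were chosen with earlier results of these data known.

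Barcodes were kept with at least 500 UMIs, 200 genes and at most 20% mitochondrial UMIs (13 genes). Scrublet doublets were removed, 0 and 147 in the medial and lateral red libraries and 2 and 3 in the white ones, so that step hardly acted in 3 libraries and doublets remain. The counts of each library were added up over all its cells and over each marker group. edgeR 4.0.16 in R 4.3.3 (TMM, filterByExpr, quasi-likelihood fit with glmQLFit, then glmQLFTest) fitted zone and meniscus together. This left 1 residual degree of freedom, and the dispersion of each gene was estimated with information from the other genes tested. Groups were compared with the library as a term. Zones were compared in groups with at least 50 cells in every library, groups with each other at 20 cells in at least 3 libraries. Standard errors were taken as the size of the log2 fold change divided by the square root of F. A call means a Benjamini-Hochberg adjusted p below 0.05 over all genes tested. The smallest p of an exact permutation test with 2 libraries a zone is 0.33. Intervals cover counting error only. The named genes are the 6 members, the 4 lowest p of each list, further called genes of the lists and the 3 genes nearest to each member. The fits were tested on simulated data. DESeq2 1.42.0, library totals, no filter, no second term, all barcodes, at least 3 markers and each library left out were the alternatives. When a library was left out of a zone or meniscus fit, the second term was dropped as well, so both changes act together there. Lateral libraries are called replicate 1 and medial ones replicate 2, and the second term pairs the zones of a meniscus, which the labels name without tying it to an animal.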

Additional observations from a re-analysis of the deposited data

Results flagged for a closer look

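The zone difference, white over red, was not the same in fibrochondrocyte-like as in fibroblast-like cells for 3 members, by a test of the difference itself (edgeR's quasi-likelihood test). That comparison was added after the data were seen, and 2.53% of genes tested passed in it. The white fibroblast-like groups held 69 medial and 132 lateral cells. The zone difference was greater by 1.09 on the log2 scale for COMP (adjusted p = 0.0125, 0.597 with DESeq2). It was lower for THBS4 (-1.35, adjusted p = 0.00014) and CILP2 (-2.05, adjusted p = 9.19e-08). For 3 further pairs of groups both menisci moved one way in one group and the opposite way in the other, and these differences were not tested. THBS1 in endothelial-like cells had log2 ratios white over red of 0.58 in the medial and 0.85 in the lateral meniscus, against -0.15 and -0.84 in mural-like cells, a mean difference of 1.21. In myeloid-like cells the THBS1 ratios were 3.01 and 1.82, a mean difference from mural-like cells of 2.91. The chondrocyte marker list stood at 1606 and 948 CPM in the medial and lateral white myeloid-like cells and at 40.9 and 9.93 CPM in the red ones, and its part in the difference was not tested. In myeloid-like cells with no cartilage marker THBS1 had 0 and 12.6 CPM in the medial and lateral white libraries, from 0 and 1 UMI. It had 36.4 and 20.03 CPM in the red ones, from 31 and 16 UMIs, and the white counts are too few to give a direction. Without the medial white library the fitted THBS1 difference in all myeloid-like cells was 0.85 and not called. THBS2 had log2 ratios of 1.02 and 0.94 in mural-like cells, from 13 and 4 white UMIs, against -1.16 and -0.65 in fibroblast-like cells, a mean difference of 1.89.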

How the results depend on the processing

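Of the members' log2 fold changes under all alternatives, 617 kept direction and side of the threshold, 56 lost the call, 26 gained it and 29 reversed. The second term acts as a replicate block that pairs zones by meniscus. Without it the meniscus comparison called 0 genes (main 23, and 27 at an unadjusted p below 0.05), fibrochondrocyte-like cells 971 (main 1846), myeloid-like cells 116 (338) and chondrocyte-like against fibrochondrocyte-like cells 190 (365), and the meniscus values of COMP, THBS1 and CILP2 turned to 0.40, 0.012 and 0.60. DESeq2 called 3267 genes between zones over all cells (main 5156), 81, 97, 621, 113 and 96 within endothelial-like, fibroblast-like, fibrochondrocyte-like, mural-like and myeloid-like cells, and 92, 263, 158 and 221 for the zone difference in fibrochondrocyte-like minus fibroblast-like, mural-like, endothelial-like and myeloid-like cells. It gave 2.90 for COMP over all cells, no longer called, and reversed THBS4 in endothelial-like cells (0.31), CILP in myeloid-like against fibroblast-like cells (-0.024), CILP2 in chondrocyte-like against fibrochondrocyte-like cells (0.076) and the THBS2 zone difference against endothelial-like cells (-0.055). With library totals, 11 genes were called between menisci and 198 for the zone difference against myeloid-like cells, THBS4 in fibrochondrocyte-like cells was called (-0.98), and values turned for THBS2 over all cells (-0.38), THBS2 in chondrocyte-like against fibroblast-like cells (-0.082) and the THBS1 zone difference against endothelial-like cells (-0.29). With no filter 262 genes were called between menisci and 755 in endothelial-like cells, and COMP (1.52) and CILP2 (0.95) in fibrochondrocyte-like cells. All barcodes gave 8 genes between menisci. At least 3 markers gave 168 genes in fibroblast-like and 350 in mural-like cells, called COMP in fibrochondrocyte-like cells (1.51) and turned the THBS2 zone difference against fibroblast-like cells (0.033). Leaving out each library in turn gave 2418 to 5109 genes over all cells, 0 between menisci in every case (11 to 92 at an unadjusted p below 0.05), 0 to 451 in endothelial-like, 138 to 199 in fibroblast-like, 199 to 1783 in fibrochondrocyte-like, 212 to 555 in mural-like and 79 to 174 in myeloid-like cells. Against fibroblast-like cells it gave 1040 to 1428 for chondrocyte-like, 2278 to 3815 for endothelial-like, 566 to 1080 for fibrochondrocyte-like, 1178 to 2773 for mural-like and 2981 to 4940 for myeloid-like cells, and 61 to 225 for chondrocyte-like against fibrochondrocyte-like cells. Over all cells THBS2 ranged from -0.063 to 0.30 and THBS4 from 0.18 to 0.91. In fibrochondrocyte-like cells COMP ranged from 1.06 to 1.95, THBS2 from -1.26 to -0.97, THBS4 from -1.07 to -0.55 and CILP2 from 0.45 to 1.28. Between menisci COMP ranged from -2.42 to 1.79, THBS1 from -1.55 to 0.95, THBS4 from -0.24 to 0.77, CILP from -3.96 to 5.59 and CILP2 from -2.39 to 1.99. These meniscus fits had no zone term and 1 meniscus was left with 1 zone, so zone differences enter their values. Zone values that changed sign were THBS4 in endothelial-like (-1.26 to 1.81), COMP in fibroblast-like (-0.26 to 0.95), THBS2 in mural-like (-0.19 to 2.05) and THBS2 (-0.50 to 0.82) and THBS4 (-0.54 to 1.93) in myeloid-like cells. So did CILP in myeloid-like against fibroblast-like (-0.89 to 0.34) and CILP2 in chondrocyte-like against fibrochondrocyte-like cells (-0.65 to 0.061). The cause of these changes in the zone and group values was not tested. With 1 library left in a zone, that library is assumed to vary like the others. Counts of under 20 UMIs in small groups limit CILP and THBS2 there.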
